A study of Mus musculus with 47 samples.

Results

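The stromal matrix genes are 38 mouse genes of connective tissue, chosen as a fixed list of gene symbols: collagens, basement membrane proteins, proteoglycans, matricellular proteins, matrix proteases and their inhibitors, collagen-handling proteins, mesenchymal receptors, and a few genes of fat cells and plasma. Of the 38, 37 had a probe set with a single gene symbol on the array, among 12393 such genes. Fbn1, the microfibril protein fibrillin-1, is not among the genes named in the annotation used and is not analysed here. These 37 genes were read by 75 probe sets, and 36 passed a filter on low signals that 8810 of all genes passed. Nid2, the basement membrane linker nidogen-2, was above the array median in only 1 tumour and is described without a test.

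The genes were measured on Affymetrix arrays of total RNA from 47 mouse T-cell lymphoblastic tumours, each from an animal of a background that predisposes to T-cell lymphoma. The labels name 14 backgrounds. The knockouts are Cdkn2a knockout combined with retroviral insertional mutagenesis (9 tumours), p53 knockout (3), E2A knockout (2) and rag E2A knockout (2), and Ikaros Plastic (3) is a further mutant background. The single transgenics are TLX1 transgenic (6 tumours), beta-catenin transgenic (3), LMO1 transgenic (3), Nup98HoxD13 transgenic (3), ThPOK transgenic (3), Pokemon transgenic (2) and Tal1 transgenic (2). The double transgenics are olig1-LMO1 double transgenic (3) and Tal1-LMO2 double transgenic (3). A second label, TLX1 positive, is given to the TLX1 transgenic tumours alone and TLX1 negative to the other 41, and the effect of this label cannot be told apart from that of the background. All samples are tumours, with no normal thymus among them. The labels used here give no strain, age, promoter or Cre, and do not state that tumours of a background came from separate mice, so p-values measure the spread between these samples. In bulk RNA of this kind, fewer cells of a type and less RNA per cell cannot be told apart.

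Stroma is the supporting tissue of an organ. Fibroblasts and pericytes spin fibrillar collagen from procollagen chains that are folded in the endoplasmic reticulum, trimmed outside the cell and cross-linked, while endothelial, muscle and fat cells rest on basement membranes of collagen IV, laminin and nidogen. T lymphoblasts are not known as a main source of these proteins, and in lymphoid tissue such transcripts are usually attributed to the cells around the lymphocytes, although some members, such as the inhibitor Timp2 and the adhesive protein thrombospondin-1, are made by many cell types.

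Sequences are shown for the genes whose behaviour is described most closely below, from RefSeq on GRCm38.p6. Col4a1 and Col4a2 encode the chains of the collagen IV trimer and had the most similar profiles among the member pairs compared. They lie head to head on chromosome 8, with Col4a1 on the minus and Col4a2 on the plus strand, and in the table of promoters their starts are 21 bases apart. The gene record of Col4a1 reaches further, to chr8:11312889, 84 bases from the start of Col4a2, so the distance depends on which annotated start is taken. The plus strand between the starts of the promoter table, chr8:11312805-11312826, is given in lower case.
Col4a1-Col4a2 starts: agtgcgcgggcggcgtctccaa

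The 250 bases before the annotated start follow for Col1a2 (chr6:4505368-4505617, plus strand), whose signal departed from that of its partner chain Col1a1 in 2 tumours, for Col3a1 (chr1:45311288-45311537, plus strand), which followed Col1a1 closely, and for Timp2 (chr11:118355412-118355661, minus strand), the member that departed most from the common pattern. Capitals mark the CCAAT motif, the TATA motif TATAAA and the GC motif GGGCGG, each searched on both strands.
Col1a2: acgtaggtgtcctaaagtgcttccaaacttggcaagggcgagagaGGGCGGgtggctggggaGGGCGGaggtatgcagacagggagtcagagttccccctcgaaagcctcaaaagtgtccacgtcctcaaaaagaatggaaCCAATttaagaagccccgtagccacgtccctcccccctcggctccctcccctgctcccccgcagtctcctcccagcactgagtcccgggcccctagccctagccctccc
Col3a1: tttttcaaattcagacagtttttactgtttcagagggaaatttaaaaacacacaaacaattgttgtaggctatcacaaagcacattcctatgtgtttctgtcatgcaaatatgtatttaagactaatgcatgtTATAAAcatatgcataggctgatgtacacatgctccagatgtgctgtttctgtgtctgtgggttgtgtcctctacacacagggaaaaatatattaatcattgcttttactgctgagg
Timp2: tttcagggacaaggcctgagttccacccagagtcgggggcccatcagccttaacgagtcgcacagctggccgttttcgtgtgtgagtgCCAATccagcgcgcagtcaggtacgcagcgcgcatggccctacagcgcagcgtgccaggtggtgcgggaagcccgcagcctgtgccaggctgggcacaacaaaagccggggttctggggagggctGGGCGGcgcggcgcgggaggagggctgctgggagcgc

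The Col1a2 window holds GGGCGG with its first base at −205 and −188 from the start and CCAAT at −109. The Col3a1 window holds TATAAA at −117 and neither of the other motifs. The Timp2 window holds CCAAT at −162 and GGGCGG at −37. Over 32851 mouse promoters of this length, 33.8% held CCAAT, 12.4% the TATA motif and 32.7% the GC motif. Of the 24 member promoters found there, 9 held CCAAT, 1 the TATA motif and 16 the GC motif. A match is a description of letters in a window and not a bound site.

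Several libraries go against their labels or stand apart. The array signal is a linear intensity with nearly the same trimmed mean on every array, and the array medians ran from 49.6 to 106. In p53 knockout tumour 2 the T-cell receptor complex genes Cd3e, Cd3g and Cd3d read 84.4, 46.2 and 62.4, and 2 of 13 T-cell markers lay above the array median. The same tumour had 14 of 15 endothelial markers (Cdh5 2063, Kdr 2569.8) and 8 of 8 skeletal muscle markers above its median, so the results on the p53 knockout background are given with and without it. All 8 skeletal muscle markers also lay above the median in TLX1 transgenic tumour 3 and LMO1 transgenic tumours 2 and 3, and 7 of 8 in TLX1 transgenic tumour 5, which also had 14 of 15 endothelial markers above it. In these 4 tumours 13 of 13 T-cell markers lay above the median. Lmo1 read 522 to 2344 in the LMO1 transgenic tumours, 586 to 2526 in those labelled Nup98HoxD13 transgenic and 11.1 to 34.3 in those labelled olig1-LMO1 double transgenic, which goes against the labels of the latter groups. Tlx1 read 7.14 to 41.5 in the TLX1 transgenic tumours and Lmo2 13.6 to 19.8 in the Tal1-LMO2 double transgenic tumours, not above other backgrounds. The same held for Tal1, which read 8.93 to 15.3 in the Tal1 transgenic and 3.98 to 19.1 in the Tal1-LMO2 double transgenic tumours. Whether the mouse probes read these transgenes was not tested. Among the TLX1 transgenic tumours, 2, 5 and 6 had the highest ratios of 3′ to 5′ control probes (2.79, 2.55 and 1.94 on the log2 scale, against −0.17 to 0.97 in the other backgrounds), a sign of RNA quality.

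The tumours were ranked by a stroma score, the mean over the 37 members of log2 values centred on each gene's mean over the 47 tumours. The members of 3 backgrounds lay far below the rest. The Tal1-LMO2 double transgenic tumours scored −2.15, −1.86 and −2.19, the E2A knockout tumours −1.96 and −2.04, and the rag E2A knockout tumours −1.43 and −1.59. The next tumour up was beta-catenin transgenic tumour 2 at −0.76, a gap of 0.67.

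At the other end, p53 knockout tumour 2 scored 3.26, which is 2.02 above the next tumour, Ikaros Plastic tumour 2 at 1.24. The other p53 knockout tumours scored 0.19 and 0.35. By background mean the order ran p53 knockout 1.27 ± 1.73 (SD, n = 3), Ikaros Plastic 0.92 ± 0.35 (n = 3), TLX1 transgenic 0.57 ± 0.61 (n = 6), ThPOK transgenic 0.35 ± 0.29 (n = 3) and Cdkn2a knockout 0.32 ± 0.21 (n = 9). Without tumour 2 the p53 knockout mean was 0.27 ± 0.11 (n = 2), below Ikaros Plastic, TLX1 transgenic, ThPOK transgenic and Cdkn2a knockout.

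In the middle lay LMO1 transgenic at 0.09 ± 0.27 (n = 3), Pokemon transgenic at 0.07 ± 0.48 (n = 2), Nup98HoxD13 transgenic at −0.03 ± 0.16 (n = 3), olig1-LMO1 double transgenic at −0.10 ± 0.58 (n = 3), Tal1 transgenic at −0.12 ± 0.09 (n = 2) and beta-catenin transgenic at −0.16 ± 0.57 (n = 3). These neighbours differ by less than the SD of at least one of each adjoining pair. The bottom of the order was rag E2A knockout −1.51 ± 0.11 (n = 2), E2A knockout −2.001 ± 0.06 (n = 2) and Tal1-LMO2 double transgenic −2.07 ± 0.18 (n = 3), where the last pair overlap. Backgrounds held 77.5% of the variance of the score over the 47 tumours and 38% over the 40 tumours outside the 3 lowest backgrounds. Such shares lie above 0 without any background effect when many groups hold 2 or 3 tumours, and they are not corrected for that.

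**Figure D1:**
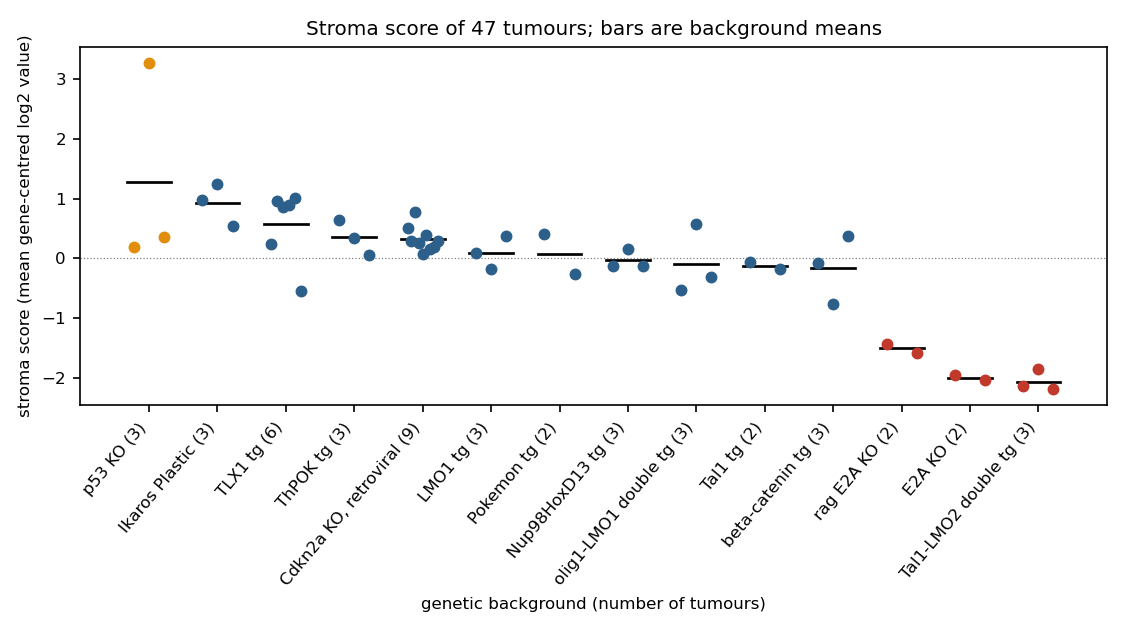
Stroma score of each tumour (points; mean of gene-centred log2 values over 37 members) by background, with the background mean. The Tal1-LMO2 double transgenic, E2A knockout and rag E2A knockout tumours lie between −2.19 and −1.43, all below the other 40, and p53 knockout tumour 2 stands alone at 3.26.

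The members seldom read above the middle of the array in the lowest tumours. In the 7 tumours of the 3 lowest backgrounds, 4 to 12 of the 37 members exceeded the array median, against 14 to 37 in the other 40 tumours. Of the 37 members, 20 did not exceed it in any of the 7. These tumours were set apart by the score of the same members, so the counts are a description, and the share over all genes is not given. Some of the 20 seldom exceeded the median in any tumour: Nid2 did so in 1 of 47, Lama2 in 2, Thbs1 in 3, Timp3 in 6 and Col18a1 in 9. The array medians themselves were 49.6 to 61.2 in the 7 and 53.3 to 106 in the 40, and their part in the score was not tested.

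**Figure D2:**
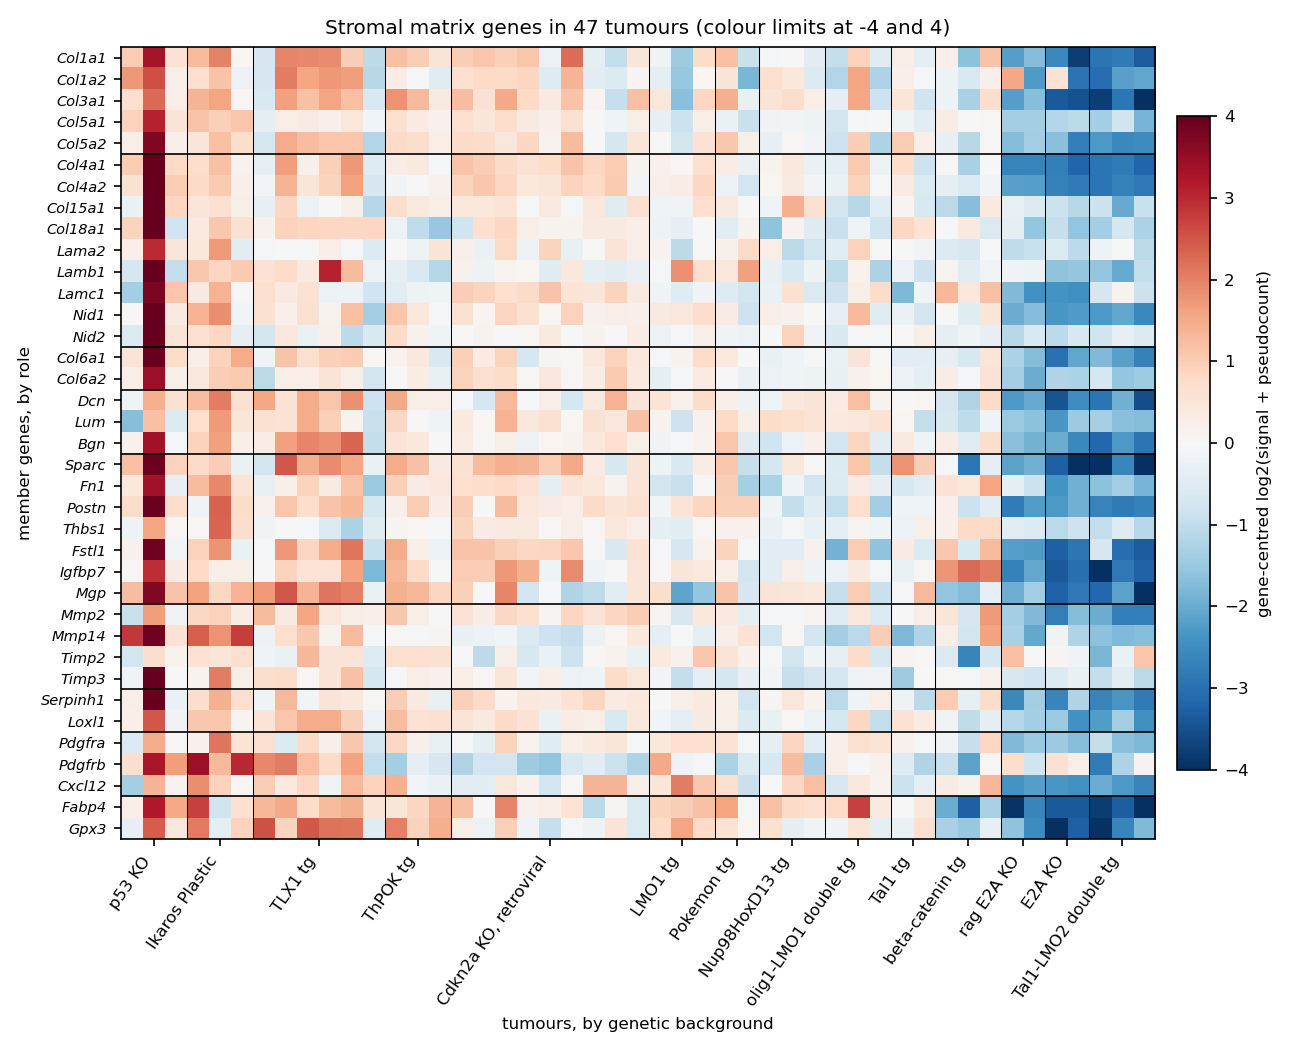
Gene-centred log2 value of each of the 37 members (rows, by role) in each of the 47 tumours (columns, by background). Most rows are low across the Tal1-LMO2 double transgenic, E2A knockout and rag E2A knockout columns and high in p53 knockout tumour 2, while Timp2 and Pdgfrb do not follow that pattern.

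Differences between the 14 backgrounds were tested with limma (moderated F-test, Benjamini-Hochberg adjustment over the 8810 genes). Of the 36 members tested 35 differed, where 68.1% of all genes did. The smallest adjusted p-values belonged to Fabp4 (1.3e-08), a fatty acid carrier of fat cells and vessel endothelium, Igfbp7 (6.36e-08), a secreted binding protein of vessels, and Col4a1 (7.39e-08). Timp2 was the member that did not pass (adjusted p = 0.0543). Each background was then set against the mean of the other 13 in the same fit, and the differences below are on the log2(signal + 15.9) scale with their standard errors. These contrasts share tumours, so they are given side by side and are not independent of each other. The mean of the other 13 holds the lowest-scoring backgrounds, or the rest of them, and their values lower it for most members. A difference above 0 is therefore not a rise over the middle of the order.

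In the Tal1-LMO2 double transgenic tumours 28 of 36 members were lower, where 5.23% of all genes were lower. The median difference of the members was −2.25, against −0.05 over all genes. All 5 fibrillar collagens fell, as did both collagen VI chains, all 3 small leucine-rich proteoglycans, all 7 matricellular and adhesive proteins, both collagen-handling proteins and both fat and plasma genes. The basement membrane group was less uniform, with 3 of 8 tested members lower. Leaving out any 1 tumour gave 19 to 30 members.

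Col1a1, which encodes the main chain of type I collagen, read 16.7, 19.0 and 8.56 in these tumours, and 2.16 to 2500.0 in the other 44, with a median of 306. Of the other tumours, only E2A knockout tumour 2 was below the highest of the 3. The difference was −2.98 ± 0.59 (adjusted p = 0.00104). Col3a1, the type III collagen of soft connective tissue, read 47.5, 102 and 34.6 against a median of 1201 in the other 44 tumours, a difference of −3.57 ± 0.51 (adjusted p = 1.86e-05). The E2A knockout tumours were the others below the highest of these values.

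For the basement membrane, Col4a1 read 24.9, 28.0 and 18.8, and the median elsewhere was 365 (difference −2.88 ± 0.43, adjusted p = 3.18e-05). The laminin chains did not behave as collagen IV did: Lamb1 differed by −1.53, Lama2 by −0.39 and Lamc1 by −0.23 ± 0.46 (adjusted p = 0.817 for Lamc1), and none of them passed the test. Col15a1 and Col18a1, vessel-associated collagens of which the latter is the source of endostatin, also missed the threshold at −1.28 and −1.05. Several of these genes read low in most tumours, which limits how far they could fall. Lama2 was above the array median in 2 of the 47 tumours, Col18a1 in 9, Lamb1 in 15, Col15a1 in 19 and Lamc1 in 26. Col4a1 was above it in 40. Lamc1 was not at its lowest in the Tal1-LMO2 double transgenic tumours, where it read 45.3, 91.6 and 38.1. In the E2A knockout tumours it read 2.65 and 1.89.

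Among the secreted proteins, Sparc, a collagen-binding glycoprotein, read 7.30, 57.4 and 5.71 against a median of 607 elsewhere, a difference of −3.71 ± 0.56 (adjusted p = 4.16e-05). Igfbp7 read 6.75, 52.8 and 37.8, where the median of the other tumours was 590.3 (difference −3.49 ± 0.45, adjusted p = 5.74e-06). The proteoglycan decorin (Dcn), which coats collagen fibrils, read 37.1, 91.1 and 18.2 against 476 (difference −2.77 ± 0.42, adjusted p = 4.16e-05). Fabp4 showed the largest difference of the members here: 27.5, 44.7 and 15.8 against a median of 901 (−3.79 ± 0.50, adjusted p = 8.18e-06). For each of these genes every Tal1-LMO2 tumour was below the median of the others, and the tumours that overlapped them were from the E2A knockout or rag E2A knockout backgrounds, except beta-catenin transgenic tumour 2 for Sparc. Besides the laminins and vessel collagens, the members that did not pass were Pdgfrb at −1.42 ± 0.52 (adjusted p = 0.0971), Timp3 at −0.77 and Timp2 at −0.40.

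The E2A knockout tumours, which lack the basic helix-loop-helix factor E2A, had 23 of 36 members lower, where 2.83% of all genes were lower. The median difference was −2.16 (all genes −0.07). Gpx3, a glutathione peroxidase secreted into plasma, read 3.05 and 19.9 against a median of 348 in the other 45 tumours (−3.74 ± 0.58, adjusted p = 9.68e-05). Sparc read 30.7 and 8.22 (−3.70 ± 0.68, adjusted p = 0.00071) and Col1a1 26.0 and 2.16 (−3.13 ± 0.71, adjusted p = 0.00602). All 3 small leucine-rich proteoglycans and 6 of 7 matricellular proteins were lower, as were 3 of 5 fibrillar collagens and 4 of 8 basement membrane genes. Lamc1, the laminin gamma-1 chain, was among the latter at −2.34 ± 0.55 (adjusted p = 0.00861), unlike in the Tal1-LMO2 double transgenic tumours. The difference between the backgrounds was not tested.

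The E2A knockout count rests on a pair of tumours. It was 1 without tumour 1 and 11 without tumour 2, where the remaining tumour is assumed to vary like the other groups, and 27 without p53 knockout tumour 2 (3.89% of all genes). With a pseudocount at the median signal it was 9, where 2.49% of all genes were called in either direction. The members that did not pass included Col1a2 at −1.10 ± 0.77 (adjusted p = 0.495), Timp2 at −0.08 and Pdgfrb, the platelet-derived growth factor receptor of pericytes, at 0.43.

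In the rag E2A knockout tumours, 10 of 36 members were lower, where 1.26% of all genes were. The members' median was −1.64 (all genes −0.05). Fabp4 read 23.7 and 80.3 (−3.25 ± 0.61, adjusted p = 0.00332) and Col4a1 33.2 and 32.3 (−2.56 ± 0.52, adjusted p = 0.00646). Periostin (Postn), a matricellular protein of fibroblasts, read 2.42 and 10.8 against a median of 140.0 elsewhere (−2.47 ± 0.52, adjusted p = 0.00897). Cxcl12, the chemokine by which stromal cells retain lymphoid progenitors, read 12.6 and 16.9 against 156 (−2.25 ± 0.51, adjusted p = 0.0147). The others were Igfbp7, Dcn, Col4a2, Col6a2, Pdgfra and Col5a1, between −2.26 and −1.31. The count was 0 without tumour 1 (21 members lower at an unadjusted p under 0.05), 1 without tumour 2 and 19 without p53 knockout tumour 2 (2.5% of all genes). With all tumours it was 1 with a pseudocount at the median signal, 3 after quantile normalization and 21 with array weights. In these settings 0.477%, 0.556% and 4.96% of all genes were called in either direction.

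**Figure D3:**
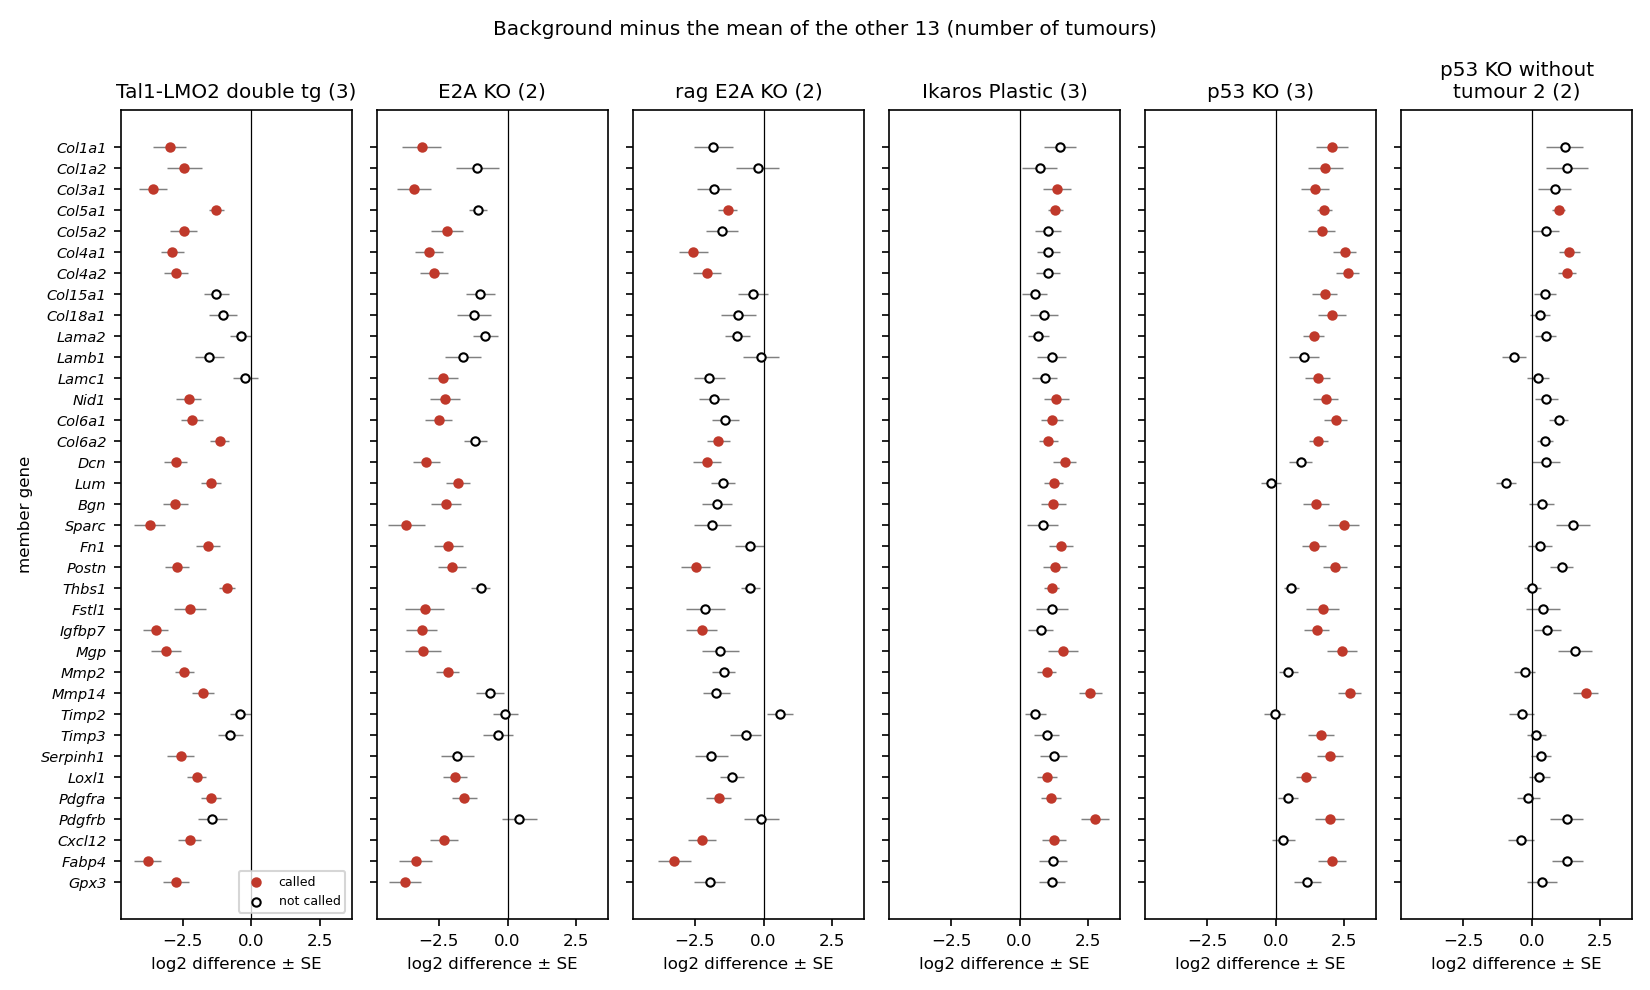
Difference of each of 36 members from the mean of the other 13 backgrounds, on the log2(signal + 15.9) scale with standard errors, in Tal1-LMO2 double transgenic, E2A knockout, rag E2A knockout, Ikaros Plastic and p53 knockout tumours, the last also without tumour 2. Filled red points passed an adjusted p of 0.05: 28, 23 and 10 members lower in the first 3 panels, 18 higher in Ikaros Plastic, and 27 higher in p53 knockout but 4 without tumour 2.

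In the p53 knockout tumours 27 of 36 members were higher, where 12.4% of all genes were higher, and the members' median was 1.66 (all genes 0.04). Most of this came with 1 tumour: without tumour 2, 4 members were higher, where 3.96% of all genes were, and array weights with all tumours also gave 4 called (3.48% of all genes). Tumour 2 had the highest signal of the 47 for 28 of the 37 members and was among the top 3 for 33. The basement membrane group had 7 of 8 members higher with it. Of these 8, Lama2 passed the filter with 2 arrays above the median, p53 knockout tumour 2 (291) and Ikaros Plastic tumour 2 (110). Its place among the tested genes therefore depended on p53 knockout tumour 2.

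Mmp14, a membrane-anchored collagenase that also activates Mmp2, read 1062, 2224 and 211 in p53 knockout tumours 1 to 3, against a median of 119 in the other 44. Tumours 1 and 2 exceeded all 44 and tumour 3 lay within their range. The difference was 2.70 ± 0.41 (adjusted p = 3.06e-05), and 1.97 ± 0.46 without tumour 2 (adjusted p = 0.00811). Col4a1 read 608, 6206 and 522 and Col4a2 189.9, 3848 and 257, with medians of 330.2 and 130.3 elsewhere. For both chains tumour 2 lay above all others and tumours 1 and 3 within their range. Col4a1 differed by 2.52 ± 0.43 (adjusted p = 0.000108), and by 1.38 ± 0.40 without tumour 2 (adjusted p = 0.0313). Col4a2 differed by 2.63 ± 0.42 (adjusted p = 5.67e-05), and by 1.28 ± 0.34 without it (adjusted p = 0.0177).

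Sparc read 981, 6719 and 825 (2.47 ± 0.56, adjusted p = 0.00195), the matrix Gla protein Mgp, an inhibitor of calcification, 677, 3839 and 634 (2.40 ± 0.54, adjusted p = 0.00196), and the collagen VI chain Col6a1 179.8, 2545 and 208 (2.18 ± 0.40, adjusted p = 0.000267). In each of these 3 genes tumour 2 was the high value and the other pair fell within the range of the other backgrounds, and none of them passed without tumour 2. The fourth member to pass without it was Col5a1, a chain of the fibril-nucleating type V collagen, at 0.98 ± 0.24 (adjusted p = 0.0106). The part of endothelial, muscle or other non-T cells in tumour 2 was not tested.

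Some members did not differ by the test over the background although their signal in tumour 2 was among the 8 highest of the 47. Lumican (Lum), a fibril-spacing proteoglycan, read 174 in tumour 2 but 10.2 and 41.5 in tumours 1 and 3, and differed by −0.17. Dcn differed by 0.91, Cxcl12 by 0.28, Pdgfra by 0.45 and Timp2 by −0.04. None of these passed. Nid2 read 1617 in tumour 2, the single tumour in which it exceeded the array median.

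In the Ikaros Plastic background, named for the lymphoid zinc-finger factor Ikaros, 18 of 36 members were higher, where 15.0% of all genes were higher. The members' median was 1.17 (all genes 0.09). The receptors and chemokine (3 of 3), the proteoglycans (3 of 3) and collagen VI (2 of 2) rose together, whereas 1 of 8 basement membrane genes passed. Of the fat and plasma members, Fabp4 differed by 1.21 and Gpx3 by 1.18, and neither passed. Pdgfrb read 1854, 409.6 and 1365 against a median of 108 in the other 44 tumours (2.75 ± 0.52, adjusted p = 0.000458), and all 3 tumours lay in the upper part of its range, overlapped by p53 knockout tumour 2 and 5 other tumours. Mmp14 read 775, 511 and 1014 (2.57 ± 0.41, adjusted p = 7.38e-05), and of the other tumours only p53 knockout tumours 1 and 2 were above the lowest of these.

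Col5a1 was even among the tumours at 197, 172 and 194, with 1 other tumour above the lowest of them (1.29 ± 0.27, adjusted p = 0.0012). Dcn read 919, 1644 and 598 against a median of 451 (1.64 ± 0.42, adjusted p = 0.00504) and fibronectin (Fn1), an adhesive glycoprotein, 813, 1276 and 484 against 352 (1.50 ± 0.44, adjusted p = 0.0131). The values of the 3 tumours overlap those of other backgrounds for both. The count of 18 was 11 without tumour 1, 5 without tumour 2 and 29 without p53 knockout tumour 2 (18.7% of all genes). It was 8 after quantile normalization, where 18.3% of all genes were called in either direction. With a pseudocount at the median signal it was 10, where 22.3% of all genes were. Macrophage markers were also higher here, 8 of 12 tested, as were 7 of 9 pericyte and smooth muscle, 6 of 9 thymic epithelial, 4 of 9 fibroblast and 4 of 9 adipocyte markers. The mean gene-centred thymic epithelial value was −0.12, 2.23 and 1.53 in tumours 1 to 3, and the adipocyte value 2.55, 0.10 and 0.44. Their part in the result was not tested.

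TLX1 positive tumours were compared with TLX1 negative tumours because the genotype label of the series makes that split. Of the 36 members 2 were higher, where 12.6% of all genes were higher, and the members' median was 0.70 (all genes 0.07). Gpx3 read 228 at the lowest, 1499 at the median and 1989.7 at the highest of the 6 TLX1 positive tumours, and 3.05 to 1813 in the other 41, with a median of 290.0. Mgp read 231, 1062 and 1644 on the same terms, against 2.13 to 3839 with a median of 269. The ranges overlap for both genes. The differences were 1.86 ± 0.62 (adjusted p = 0.0251) for Gpx3 and 1.81 ± 0.66 (adjusted p = 0.0424) for Mgp.

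The call depends on which tumours and which spread are used. It was 1 member without TLX1 transgenic tumour 1 or 2, 0 without tumour 3, 4 or 5 (5 members at an unadjusted p under 0.05 in each case), 5 without tumour 6 and 6 without p53 knockout tumour 2 (15.0% of all genes). With background as a random block, which takes account of the 13 backgrounds among the TLX1 negative tumours, limma called 0 members (1 at an unadjusted p under 0.05), where 0.0227% of all genes passed. With the 3′ to 5′ ratio as a covariate 0 members passed (3 at an unadjusted p under 0.05), where 0.0681% of all genes did. Set against the unweighted mean of the other 13 backgrounds, a comparison added after seeing the data, 19 members were higher, where 19.0% of all genes were. Biglycan (Bgn), a proteoglycan related to decorin, was one of these, with 138, 979 and 1473 as its lowest, median and highest values and a difference of 1.49 ± 0.34 (adjusted p = 0.000971). Dcn was another, at 212, 978 and 1412 (1.28 ± 0.31, adjusted p = 0.00165). Tumour 6 gave the lowest score of the 6 at −0.55, and the other 5 lay between 0.24 and 1.00. The count of 19 was 10, 12 and 9 without tumours 2, 4 and 5. It was 11 with a pseudocount at the median signal and 3 with the ratio as a covariate. In the latter settings 30.4% and 3.51% of all genes were called in either direction. Of 10 tested neutrophil markers 8 were higher in the TLX1 positive tumours. Their mean gene-centred value was 6.84 in tumour 2 and 3.34 in tumour 5, and −0.41 to 0.14 in the other 4. Outside this background it reached 2.28, in olig1-LMO1 double transgenic tumour 3. The part of such cells was not tested.

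Among the Cdkn2a knockout tumours, the largest group, 13 of 36 members were higher and 1 lower, where 16.1% of all genes were higher and 14.6% lower. The members' median was 0.56 (all genes 0.02). The mean of the other 13 backgrounds includes the 3 lowest-scoring ones. By mean stroma score the Cdkn2a knockout tumours (0.32) lay between ThPOK transgenic (0.35) and LMO1 transgenic (0.09). The count called in either direction was 22 without p53 knockout tumour 2 (34.7% of all genes) and 24 with array weights (46.7% of all genes). The basement membrane genes Col4a1, Col4a2 and Lamc1 were among the 6 with the largest positive difference. Col4a1 read 326, 537 and 672 as its lowest, median and highest of 9 (1.20 ± 0.27, adjusted p = 0.000735). Col4a2 read 109, 221 and 265 (1.06 ± 0.26, adjusted p = 0.00234) and Lamc1 110.4, 149 and 201 (1.08 ± 0.29, adjusted p = 0.00396). The medians of the other 38 tumours were 319, 114 and 70.4, and the ranges overlap for all 3 genes.

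Sparc read 272, 887 and 1267 (1.21 ± 0.35, adjusted p = 0.00797), Igfbp7 427, 980.3 and 1831 (1.16 ± 0.28, adjusted p = 0.00197) and Col3a1 437, 1475 and 2454 (1.01 ± 0.32, adjusted p = 0.0145). Pdgfrb was the member that fell. It read 42.0, 79.8 and 111, against a median of 169 in the other 38 tumours (−1.09 ± 0.33, adjusted p = 0.0105), and 14 of those 38 were below the highest Cdkn2a knockout value.

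The beta-catenin transgenic tumours, in which the effector of Wnt signalling is the transgene named, had members on both sides: 2 of 36 higher and 2 lower, where 11.4% and 7.42% of all genes were. Igfbp7 read 1684, 2405 and 2078, with 2 of the other 44 tumours above the lowest of these (2.49 ± 0.45, adjusted p = 0.000165). Lamc1 was also higher (1.33 ± 0.46, adjusted p = 0.0375). Fabp4 was low at 136, 46.7 and 229.6 against a median of 901 (−2.06 ± 0.50, adjusted p = 0.00372), and so was Timp2 at 597, 130.3 and 553 against 973 (−1.46 ± 0.38, adjusted p = 0.00627). Without p53 knockout tumour 2 these 4 and also Fn1, Mmp2, Serpinh1 and Thbs1 passed, 8 in all, where 22.1% of all genes did.

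In the ThPOK transgenic tumours 2 of 36 members were higher, where 6.61% of all genes were: Gpx3 at 1349, 633 and 912 (1.82 ± 0.48, adjusted p = 0.0115) and Col3a1 at 3009.7, 2137 and 1105 (1.54 ± 0.51, adjusted p = 0.0442). Both overlap other backgrounds. Without p53 knockout tumour 2 the count was 6, where 8.31% of all genes were higher, with Col5a1, Loxl1, Mgp and Sparc added. In the remaining 5 backgrounds limma called 0 of 36 members. At an unadjusted p under 0.05 there were 4 in LMO1 transgenic (13.3% of all genes on the same terms), 3 in Nup98HoxD13 transgenic (16.1%), 2 in Tal1 transgenic (18.0%), and 1 each in Pokemon transgenic (11.7%) and olig1-LMO1 double transgenic (12%). After adjustment the shares of all genes called were 1.03%, 3.01%, 4.96%, 0.953% and 0.658% in that order. Leaving out any 1 LMO1 transgenic tumour, the muscle-marked ones included, also gave 0 members in that background (2 to 5 at an unadjusted p under 0.05). In these 5 backgrounds the medians of the members lay between 0.09 and 0.30, against a mean that includes the 3 lowest-scoring backgrounds. The mean stroma scores of these 5 lay between −0.12 and 0.09. Without p53 knockout tumour 2, Cxcl12 passed in LMO1 transgenic tumours (1.58 ± 0.39, adjusted p = 0.0296, 1.62% of all genes called) and Mmp14 in Tal1 transgenic tumours (−1.48 ± 0.46, adjusted p = 0.0482, 5.94%).

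Several members not yet described were low in the same 7 tumours. Serpinh1, the chaperone that folds procollagen, read 1.77 to 39.2 in the 7 tumours of the 3 lowest backgrounds and 44.1 to 3776 in the other 40. Loxl1, which cross-links elastin and collagen, read 2.76 to 30.7 and 34.7 to 558, and Col5a2, a type V collagen chain, 6.78 to 41.5 and 48.5 to 2007. For these 3 genes the ranges are separate.

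The same held for Nid1, the laminin-binding nidogen, at 3.26 to 18.3 and 29.0 to 1913, for Mmp2, a gelatinase, at 3.24 to 34.4 and 54.1 to 411, and for Pdgfra, the growth factor receptor of fibroblasts, at 1.18 to 15.2 and 15.9 to 246. The ranges overlapped for Col6a2, the second collagen VI chain measured (27.3 to 90.4 and 65.9 to 1827), for the follistatin-related Fstl1 (0.45 to 87.2 and 28.4 to 2424) and for Timp3, an inhibitor bound to matrix (15.4 to 37.1 and 8.87 to 1358). These backgrounds were set apart by their scores, so the ranges are a description.

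Most members moved together. The Pearson correlation of each member with the score of the other members over the 47 tumours had a median of 0.84, and 23 members were above 0.8. Within the 39 tumours that remain without the 3 lowest backgrounds and p53 knockout tumour 2, the median was 0.57, so part of the pooled value rests on those 8 tumours. All points share the array-wide scaling, and the score itself correlated with the log2 array median at 0.68 over 47 tumours and 0.46 over 39. The highest members were the nidogen Nid1 (0.95 over 47 tumours, 0.78 over 39), Col4a2 (0.95 and 0.69), Col4a1 (0.95 and 0.72), Bgn (0.95 and 0.82) and Col6a1 (0.93 and 0.69). Those 5 span basement membrane, proteoglycan and collagen VI.

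Pairs of linked members were compared directly. Col4a1 and Col4a2 correlated at 0.98 over 47 tumours and 0.92 over 39, and Col1a1 and Col3a1 at 0.95 and 0.89. Col1a1 and Col1a2, which form type I collagen together, reached 0.80 and 0.85. Lamb1 and Lamc1, which share laminin trimers, reached 0.42 and −0.07. The receptors Pdgfra and Pdgfrb correlated at 0.34 over 47 tumours, and Mmp2 with its inhibitor Timp2 at 0.15.

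Timp2, the inhibitor that also takes part in activating Mmp2 at the cell surface, followed the other members least, with r = 0.24 over 47 tumours. It was above the array median in 47 of 47. In the backgrounds with the lowest scores it read 243, 755 and 1972 (Tal1-LMO2 double transgenic), 970.0 and 816 (E2A knockout) and 2123 and 903 (rag E2A knockout). These values lie within the range of the other 40 tumours (130.3 to 2277), and Tal1-LMO2 tumour 3 was 3.40 above the score of the other members. Its other probe sets correlated with the one used at 0.34 to 0.82, and with the score of the other members at −0.005 to 0.45. Their mean log2 values in the lowest-scoring tumours minus the other 40 ran from −0.60 to 0.04. Part of this member's reading therefore depends on the probe set.

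Pdgfrb was the other member with a correlation under 0.5 (r = 0.42), and here the probe sets gave the same profile (r = 0.93 between them). It was high in Ikaros Plastic, as above. In the E2A knockout tumours it read 248 and 188 and in the rag E2A knockout tumours 265 and 82.8, against 8.99, 58.2 and 174 in the Tal1-LMO2 double transgenic tumours. The E2A knockout values exceed the highest of the 9 Cdkn2a knockout tumours (111), although the Cdkn2a knockout tumours score higher for the members as a whole. Rgs5, a pericyte marker, did not go with it there and differed by −3.33 ± 0.50 in the E2A knockout and −3.32 ± 0.50 in the rag E2A knockout tumours. Rgs5 was the only marker of the pericyte and smooth muscle list called in these backgrounds, so it does not stand for the list.

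**Figure D4:**
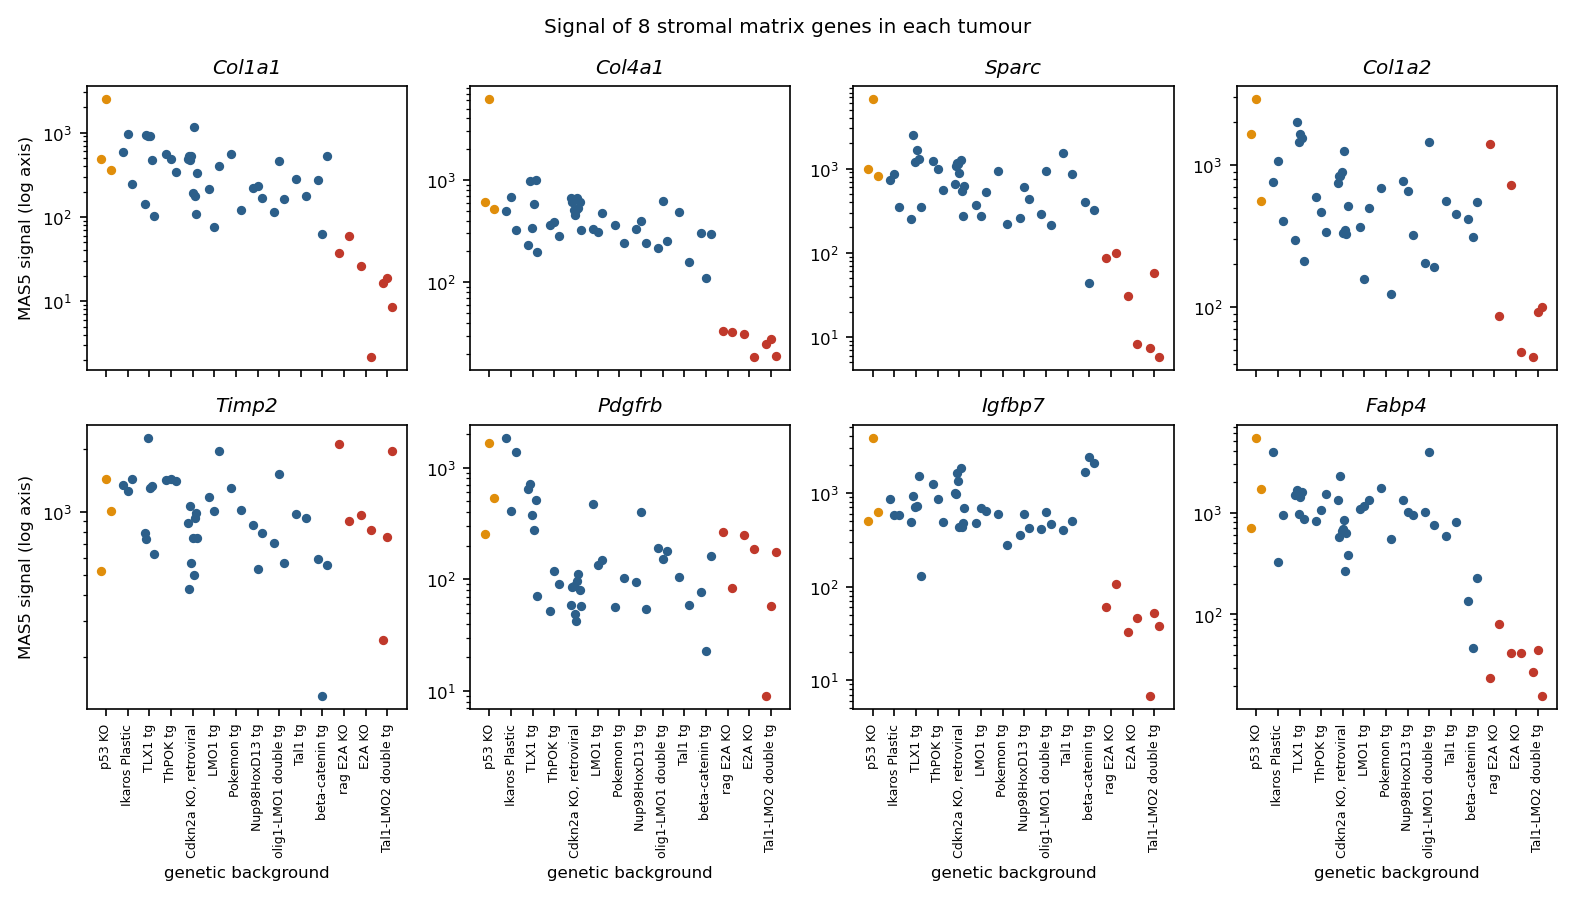
Signal (linear intensity on a log axis) of 8 members in each tumour, by background, with the 3 lowest-scoring backgrounds in red, p53 knockout in orange and the others in blue. Col1a1, Col4a1, Sparc and Igfbp7 are low in all 7 red tumours, whereas Timp2 and Pdgfrb overlap the other backgrounds and Col1a2 is high in E2A knockout tumour 1 and rag E2A knockout tumour 1.

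The next in order of correlation were Thbs1 (0.63), Nid2 (0.66), Lama2 (0.68), Mmp14 (0.68), Lamc1 (0.70) and Lamb1 (0.70). Of these, Nid2 was above the array median in 1 tumour, Lama2 in 2 and Thbs1 in 3, so their order over most tumours is that of low signals. Thbs1, thrombospondin-1, an adhesive protein of platelets and many other cells, correlated with the score at 0.20 over the 39 tumours. It read 44.2, 270.2 and 75.9 in the Ikaros Plastic tumours, 12.5, 23.5 and 10.2 in the Tal1-LMO2 double transgenic and 7.76 in TLX1 transgenic tumour 5. Lama2, the laminin chain of muscle basement membrane, read 291 in p53 knockout tumour 2, its highest value. In the 3 lowest backgrounds it read 2.48 to 22.2, within its range in the other 40 tumours (2.14 to 291). Lamb1 was highest after p53 knockout tumour 2 in TLX1 transgenic tumour 4, at 635.

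Single tumours in which a member left the common pattern were picked out after their values were seen. Col1a2 read 722 in E2A knockout tumour 1 and 1419 in rag E2A knockout tumour 1, where its partner chain Col1a1 read 26.0 and 37.8. The second Col1a2 probe set reached 883 among the 7 lowest-scoring tumours. Cxcl12 read 606 in LMO1 transgenic tumour 2, the highest of the 47, in a tumour whose other members scored −0.24. Fabp4 read 3937 in olig1-LMO1 double transgenic tumour 2, and Gpx3 1989.7 in TLX1 transgenic tumour 1, values 2.22 and 2.38 above the score of the other members.

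Outside the list, the 10 tested genes whose profile was most like the score over 47 tumours were Pcolce (r = 0.96), the enhancer of procollagen C-proteinase, Fkbp9 (0.96), a prolyl isomerase of the endoplasmic reticulum, Serping1 (0.93), the C1 inhibitor, Fbln5 (0.92), an elastic fibre protein, Pmp22 (0.92), Ifitm3 (0.92), Csf1r (0.91), the receptor of macrophage growth factor, Sparcl1 (0.91), a relative of Sparc, Dusp3 (0.91) and Serpinf1 (0.91), a secreted serpin. The 7 lowest-scoring tumours had Pcolce signals of 1.35 to 11.6, against a median of 139.9 in the other 40.

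Lists of related genes gave the following counts in the contrasts with the most members called. Of all genes, 5.23%, 2.83% and 1.26% were lower in Tal1-LMO2 double transgenic, E2A knockout and rag E2A knockout tumours. In p53 knockout 12.4% were higher, and 3.96% without tumour 2. Of 14 collagen processing enzymes 5 were lower in Tal1-LMO2 double transgenic, 2 in E2A knockout and 1 in rag E2A knockout tumours. In p53 knockout 6 were higher with tumour 2 and 1 without it. In Ikaros Plastic 3 were higher, a share near the 15.0% of all genes. Pcolce differed by −2.54 ± 0.48, −2.35 ± 0.58 and −2.28 ± 0.58 in the 3 lowest backgrounds and by 1.87 ± 0.48 in p53 knockout. The cross-linking enzyme lysyl oxidase (Lox) differed by −2.002 ± 0.40 in Tal1-LMO2 double transgenic and −1.96 ± 0.49 in E2A knockout tumours.

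Of 28 other matrix genes 6, 2 and 2 were lower in Tal1-LMO2 double transgenic, E2A knockout and rag E2A knockout tumours. In p53 knockout limma called 8 higher with tumour 2 and 0 without it (2 at an unadjusted p under 0.05). In addition, 7 were higher in Ikaros Plastic, where 15.0% of all genes were. In TLX1 positive tumours 4 of the 28 were higher, a share near the 12.6% of all genes. Among these 4 was versican (Vcan), a large proteoglycan of loose matrix, at 1.27 ± 0.26 (adjusted p = 0.000519). Of 11 other matrix proteases and inhibitors 3, 1 and 0 were lower in the same 3 backgrounds, the last with 3 lower at an unadjusted p under 0.05. For 15 matrix receptors limma called 0 in each of them, with 4, 4 and 2 at an unadjusted p under 0.05 in either direction, and in TLX1 positive tumours 1 was higher and 3 lower, where 12.6% and 8.86% of all genes were.

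The last lists hold signals that act on fibroblasts and pericytes. Of 14 TGF-beta pathway genes 2 were lower in Tal1-LMO2 double transgenic tumours and 0 in E2A knockout and rag E2A knockout tumours (3 and 1 lower at an unadjusted p under 0.05). In p53 knockout 2 were higher and 1 lower with tumour 2, and 0 higher (1 at an unadjusted p under 0.05) and 1 lower without it. Smad7 (1.20 ± 0.35), Tgfbi (1.28 ± 0.40) and Smad3 (0.81 ± 0.24) were called higher in Ikaros Plastic, where 15.0% of all genes were. Of 3 PDGF ligands tested, 1 was lower in Tal1-LMO2 double transgenic and 2 were higher in p53 knockout tumours, with 0 called by limma without tumour 2 (also 0 at an unadjusted p under 0.05). Those 2 were Pdgfb, the endothelial ligand of Pdgfrb, at 1.79 ± 0.43, and Pdgfa at 1.46 ± 0.41. Pdgfb was also called higher in Ikaros Plastic, at 1.26 ± 0.43.

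Markers of the cell types that a tumour could hold were read in the same way. The shares of all genes lower were 5.23% in Tal1-LMO2 double transgenic, 2.83% in E2A knockout and 1.26% in rag E2A knockout tumours. A count of 1 rests on a single gene and is not read as a result about its list. In the Tal1-LMO2 double transgenic tumours 5 of 9 fibroblast, 6 of 9 pericyte and smooth muscle, 5 of 9 adipocyte, 3 of 14 endothelial and 9 of 12 macrophage markers were lower. In E2A knockout tumours 8 of 12 macrophage, 2 of 9 fibroblast, 3 of 9 adipocyte, 1 of 9 pericyte and smooth muscle and 1 of 14 endothelial markers were lower. In rag E2A knockout tumours 1 of 12 macrophage, 1 of 9 fibroblast, 2 of 9 adipocyte and 1 of 9 pericyte and smooth muscle markers were lower and limma called 0 of 14 endothelial markers (8 lower at an unadjusted p under 0.05), the pericyte marker being Rgs5 in both backgrounds. Mean gene-centred macrophage values were −1.09, −1.93 and −1.59 in rag E2A knockout, E2A knockout and Tal1-LMO2 double transgenic tumours, and T-cell values 0.33, 0.57 and 0.22. Of the defining markers in these 7 tumours, the fibroblast genes were low, with Dpt at 6.47 to 32.9 and Pdpn at 1.88 to 38.1, against 44.7 to 649 and 42.1 to 442 in the other 40. Of the vessel genes, Cdh5 read 2.44 to 17.5, Kdr 11.6 to 31.97 and Pecam1 65.0 to 223. In the other 40 they read 14.2 to 2063, 14.1 to 2570 and 32.5 to 1641, so the ranges overlap for each. Cdh5 was above the array median in only 9 of the 47 arrays and Kdr in 4. Of the smooth muscle genes, Tagln read 3.50 to 23.4 and Acta2 49.8 to 291, against 5.25 to 660 and 123 to 3025 in the other 40. Of the macrophage genes, Csf1r read 113 to 264, against 309 to 2377, and its ranges are separate. The ranges overlap for C1qa (53.4 to 533, against 214 to 2677) and C1qb (47.1 to 337, against 321 to 2038). They also overlap for Lyz2 (246 to 1444, against 918 to 6513).

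In p53 knockout 13 of 14 endothelial markers were higher with tumour 2 and 2 without it. Of 9 pericyte and smooth muscle markers 8 were higher with it and 1 without. The shares of all genes higher were 12.4% with tumour 2 and 3.96% without it. As profiles over 47 and 39 tumours, the summary of other matrix genes correlated with the stroma score at 0.93 and 0.85, of fibroblast markers at 0.88 and 0.81, of endothelial markers at 0.88 and 0.76, of macrophage markers at 0.88 and 0.71, and of T-cell markers at −0.59 and −0.41. The score moved with markers of vessels and macrophages as well as of fibroblasts, and the part of each cell type in it was not tested.

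**Figure D5:**
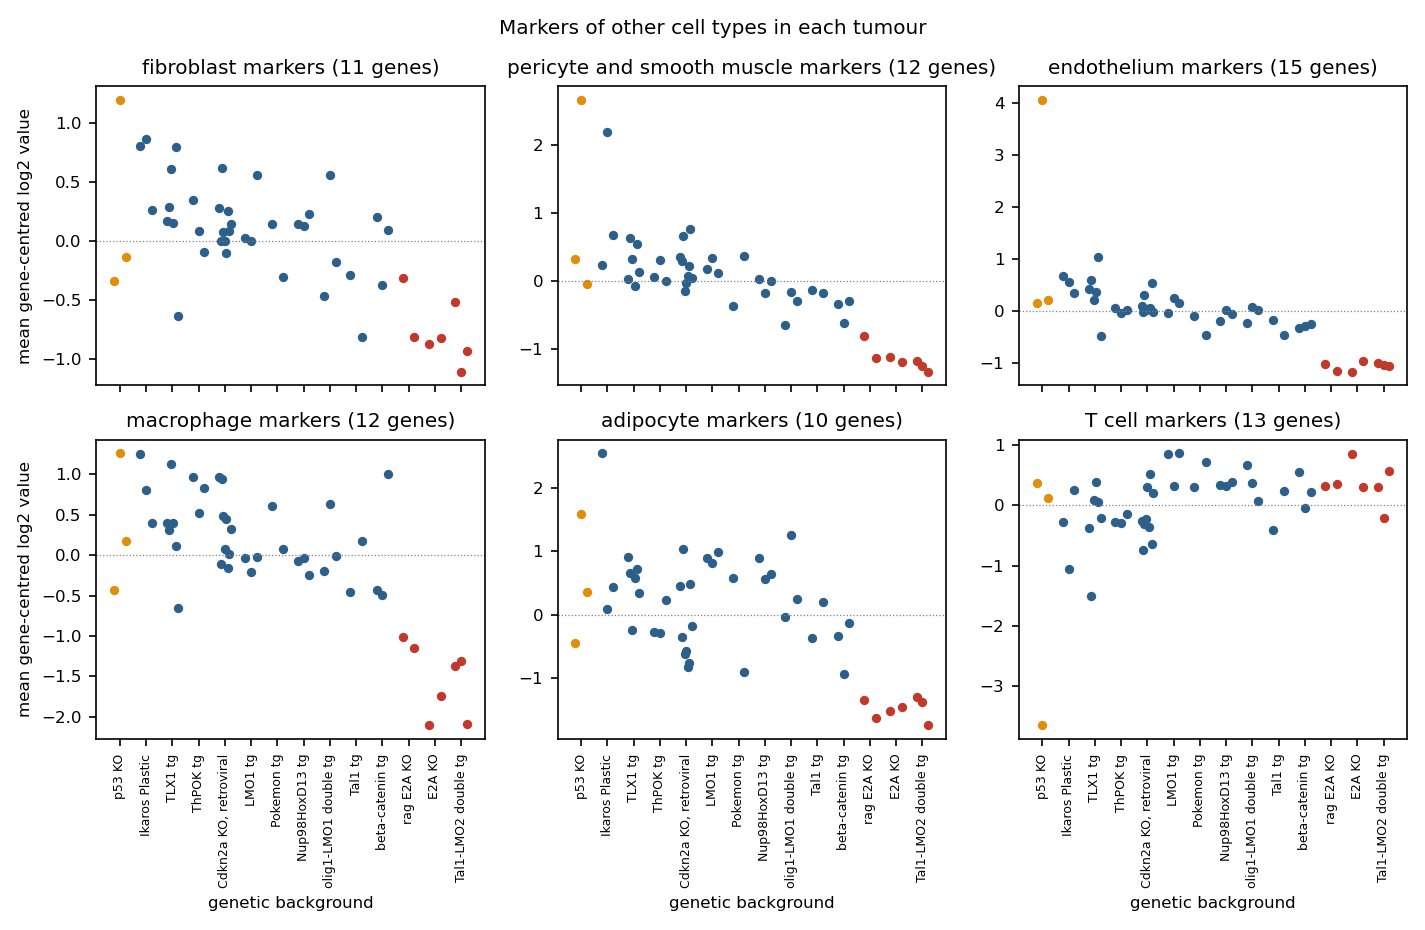
Mean gene-centred log2 value of 6 marker lists (fibroblast 11 genes, pericyte and smooth muscle 12, endothelium 15, macrophage 12, adipocyte 10, T cell 13) in each tumour (points), by background in the order of the stroma score, with the 3 lowest-scoring backgrounds in red and p53 knockout in orange. Endothelial and adipocyte values of all 7 red tumours lie below those of the other 40, and the T-cell value is lowest in p53 knockout tumour 2, at −3.64.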

How the data were processed

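Total RNA of 47 tumours was hybridised to 1-colour Affymetrix arrays, per the labels' protocols. The deposited table holds 1 linear intensity per probe set and array, computed by the authors with the Affymetrix algorithm MAS5 according to the submitters' processing notes; no version is given in the sources used here. The 2% trimmed means lie between 250.063 and 250.129 on all arrays, a global scaling that leaves array medians free to differ. Detection calls were not used here, so a low signal is a value and not an absence. Of 22690 probe sets, 20380 have 1 gene symbol in the platform annotation, and the brightest stood for its gene. Values were taken as log2(signal + 15.9). Genes above the array median in at least 2 arrays were tested (8810 of 12393) with limma 3.58.1 in R 4.3.3: a mean per background without covariates, empirical Bayes with an intensity trend, Benjamini-Hochberg adjustment over all genes and a threshold of 0.05. The procedure was tested on simulated data. The number of arrays limits the precision. Values are given in each tumour or group for up to 6 members called per direction in the p53 knockout, TLX1 positive and Cdkn2a knockout comparisons, for the 5 members most and 8 least like the score, for members whose probe sets correlated under 0.5 and for single far values. Other members named were chosen after their values were seen. Outside the members, the 10 genes most like the score and up to 4 called genes of each list could be named. The members and all lists were chosen with earlier results of these data known. Alternatives covered the pseudocount, scaling, filter, probe set, covariates, array weights and each tumour left out; those for TLX1 transgenic against the other 13 backgrounds, and the list counts without p53 knockout tumour 2, were added after seeing the data. Some items are not reported here.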

Additional observations from a re-analysis of the deposited data

Results flagged for a closer look

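In the groups of 4 to 10 tumours, TLX1 transgenic and Cdkn2a knockout, 76 combinations of member or score and group were examined for a tumour far from the others. Chance alone would mark about 1 in 20 of them, and 3 were marked. Col18a1 read 43.4 in TLX1 transgenic tumour 1, below the next lowest value of 78.1 in that group. Col18a1 also read 14.7 in Cdkn2a knockout tumour 1, where the next lowest was 42.7. Thbs1 read 89.0 in the same Cdkn2a knockout tumour, above the next highest of 62.3 and the group median of 55.9.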

How the results depend on the processing

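The same 3 backgrounds had the lowest scores in 58 of 58 settings, of which 47 left out 1 tumour each. In 57 settings p53 knockout had the highest score, and all of these kept p53 knockout tumour 2, on which that rank rests. In the setting without it the highest were Ikaros Plastic, TLX1 transgenic and ThPOK transgenic. Of the values of named members under alternatives, 2515 kept direction and side of the threshold, 97 no longer passed (64 with a tumour left out) and 0 reversed. Counts of members moved as follows, and the cause was not tested. Percentages in brackets are the share of all genes called in either direction in the same setting. With a pseudocount at the median signal, the counts were 9 in E2A knockout (2.49%), 1 in rag E2A knockout (0.477%) and 10 in Ikaros Plastic (22.3%). TLX1 transgenic against the other 13 had 11 (30.4%). Over the 11 backgrounds other than p53 knockout, TLX1 transgenic and Cdkn2a knockout there were 45 (6.25%), where the main setting called 85 (6.97%). Quantile normalization gave 3 in rag E2A knockout (0.556%), 8 in Ikaros Plastic (18.3%) and 4 in TLX1 positive tumours (22.8%). Array weights gave 4 in p53 knockout (3.48%), 21 in rag E2A knockout (4.96%), 24 in Cdkn2a knockout (46.7%), 7 in TLX1 positive (27.9%) and 145 over the 11 backgrounds (14.6%). For TLX1 positive tumours, a pseudocount of 1 gave 1, the probe set of largest interquartile range 4, the 3′ to 5′ ratio as covariate 0 (3 at an unadjusted limma p under 0.05), background as a random block 0 (1 unadjusted), and leaving out tumours 2, 5 and 6 gave 0 (6 unadjusted). For TLX1 transgenic against the other 13, the covariate gave 3 and leaving out those tumours 7. Replicate numbers do not pair the tumours: 27 of 230 same-numbered pairs correlated over 0.1 and 13 of 47 tumours correlated best with their own number. A replicate block gave 28 members in Tal1-LMO2 double transgenic, 22 in E2A knockout, 9 in rag E2A knockout, 26 in p53 knockout, 15 in Ikaros Plastic, 11 in Cdkn2a knockout, 1 in TLX1 positive, 14 in TLX1 transgenic, 78 over the 11 backgrounds and 33 between all 14. Scores of Tal1-LMO2 double transgenic, E2A knockout and rag E2A knockout were −2.82, −2.77 and −1.93 with a pseudocount of 1, −1.30, −1.25 and −1.004 with the median as pseudocount, −1.84, −1.82 and −1.31 after quantile normalization, −1.61, −1.57 and −1.20 divided by each gene's SD, and −1.49, −1.77 and −1.36 over basement membrane members. Fibrillar collagens alone gave −2.57 and −2.22 in the first 2, and the median over members −2.19 in E2A knockout and −1.67 in rag E2A knockout. Leaving out 1 tumour in turn gave 33 to 36 members between backgrounds, 4 to 28 in p53 knockout, 0 to 6 in TLX1 positive, 12 to 22 in Cdkn2a knockout, 62 to 121 over the 11 backgrounds, 19 to 30 in Tal1-LMO2 double transgenic, 1 to 27 in E2A knockout, 0 to 19 in rag E2A knockout, 5 to 29 in Ikaros Plastic and 9 to 24 in TLX1 transgenic tumours. The share of score variance between backgrounds ran from 74.9% to 87.3%, and the scores from 0.34 to 1.81 in p53 knockout, −2.21 to −1.99 in Tal1-LMO2 double transgenic, −2.09 to −1.93 in E2A knockout, −1.62 to −1.44 in rag E2A knockout and 0.78 to 1.12 in Ikaros Plastic. Signals near the floor of the array carry little order, which limits the size of the differences in the lowest backgrounds, and backgrounds of 2 tumours borrow their spread from the rest.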
